A study of Mus musculus with 18 samples.

Results

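The constitutive proteasome genes were followed across a comparison of MRTFA and MRTFB overexpression in 2 mouse cancer cell lines. The members were all genes of the deposited table whose symbol began with Psma, Psmb, Psmc or Psmd followed by a digit, leaving out the inducible core subunits Psmb8, Psmb9 and Psmb10 and symbols with a hyphen. Of 40 such rows, 3 inducible subunits and 2 hyphenated symbols were left out, and 35 of the 18909 genes in the table remained. Of these, 31 encode subunits of the proteasome: 7 alpha and 7 beta subunits of the 20S core, 6 ATPases and 3 other subunits of the 19S base, and 8 subunits of the 19S lid. The other 4 matched the symbol pattern only: Psmd5, Psmd9 and Psmd10 are chaperones that help to assemble the base, and Psmc3ip encodes a protein of meiotic recombination.

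The proteasome is the main ATP-dependent protease of the cytosol and nucleus and degrades proteins marked with ubiquitin. Its core is a barrel of alpha rings that gate the entrance and beta rings that hold the active sites, and the regulatory particle on each end consists of a base, whose ATPase ring unfolds the substrate, and a lid, which removes the ubiquitin chain. Because subunits are built into one complex in fixed proportions, cells usually make their mRNAs together, and the transcription factor NFE2L1 raises them together when proteasome activity falls short.

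RNA was sequenced from B16F10, a melanoma line, and E0771, a mammary tumour line, both of C57BL6 origin per the labels. Each line carried a pRetrox vector as control, or the same vector with MRTFA or with MRTFB, which are coactivators of serum response factor, and all groups received doxycycline at 500 ng/mL for 48 h to switch on the transgene. There were 6 groups of 3 libraries: B16F10 control, B16F10 MRTFA, B16F10 MRTFB, E0771 control, E0771 MRTFA and E0771 MRTFB. The labels do not say whether the 3 libraries of a group came from separate cultures, so p-values measure only the spread between these libraries, and the cells were cultured, with no host tissue. Libraries held 27607055 to 37116655 reads assigned to genes, and values are given as scaled reads, obtained from the reads of a library by division by its DESeq size factor.

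The transgenes were checked first. Mkl1, the gene for MRTFA, had 1124, 1514 and 1408 scaled reads in the E0771 controls and 12469, 16556 and 12160 with MRTFA. In the B16F10 libraries labelled MRTFA it had 1398, 902 and 1314 against 1109, 987 and 950 in the controls, and these ranges overlapped (log2 difference 0.22, limma adjusted p = 0.856). Acta2, a well-known target of MRTFs, was higher in both, by 5.23 on the log2 scale in E0771 and 7.07 in B16F10. Mkl2, the gene for MRTFB, rose with MRTFB in E0771 (log2 0.68, adjusted p = 0.0306) and differed by 0.35 in B16F10 (adjusted p = 0.503). With MRTFB, Acta2 was higher in E0771 (log2 1.83, adjusted p = 0.00116), and in B16F10 it had 3856, 2146 and 28018 scaled reads against 463, 176 and 798 in the controls (log2 3.93, adjusted p = 0.159). The Acta2 values in the B16F10 libraries labelled MRTFB lay wholly above the controls, with 1 library far above the others. Neither check reached a limma adjusted p under 0.05 in these libraries. The summed level of 7 melanocyte genes was 561637 to 757748 in B16F10 and 369 to 636 in E0771. The sum of 5 epithelial genes was 18.1 to 156 in B16F10 and 5820 to 17027 in E0771. In E0771 controls it was mainly Krt8 (5689, 7794 and 6676 scaled reads). Cdh1 went the other way, with 74.1, 66.2 and 27.7 in B16F10 controls and 4, 5 and 4.7 in E0771 controls. Krt19 was at most 0.9 in both control groups. The 3 fibroblast genes did not separate the lines, with sums of 532 to 2833 in B16F10 and 935 to 6704 in E0771. Marker genes of blood cells (0 of 4) were not among the genes of the table, and 2 of 3 endothelial genes summed to at most 26.5.

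All 35 members passed the filter on low values in every comparison. In the control libraries, they took 0.705% ± 0.0346 of reads in B16F10 and 0.935% ± 0.0631 in E0771 (SD, n = 3 each). The share was 0.702% and 0.710% in B16F10 with MRTFA and MRTFB, and 0.802% ± 0.00654 and 0.909% ± 0.0321 in E0771. Without Psmd8 the E0771 MRTFA libraries lay at 0.737 to 0.748%, below the controls at 0.867 to 0.973%. A share of reads also falls when other genes take up more reads. Acta2 had a mean of 735273 scaled reads in E0771 MRTFA and 19751 in the E0771 controls. The part of such genes in the lower share was not tested. In bulk RNA, fewer cells that make a transcript and less of it per cell cannot be told apart.

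**Figure D1:**
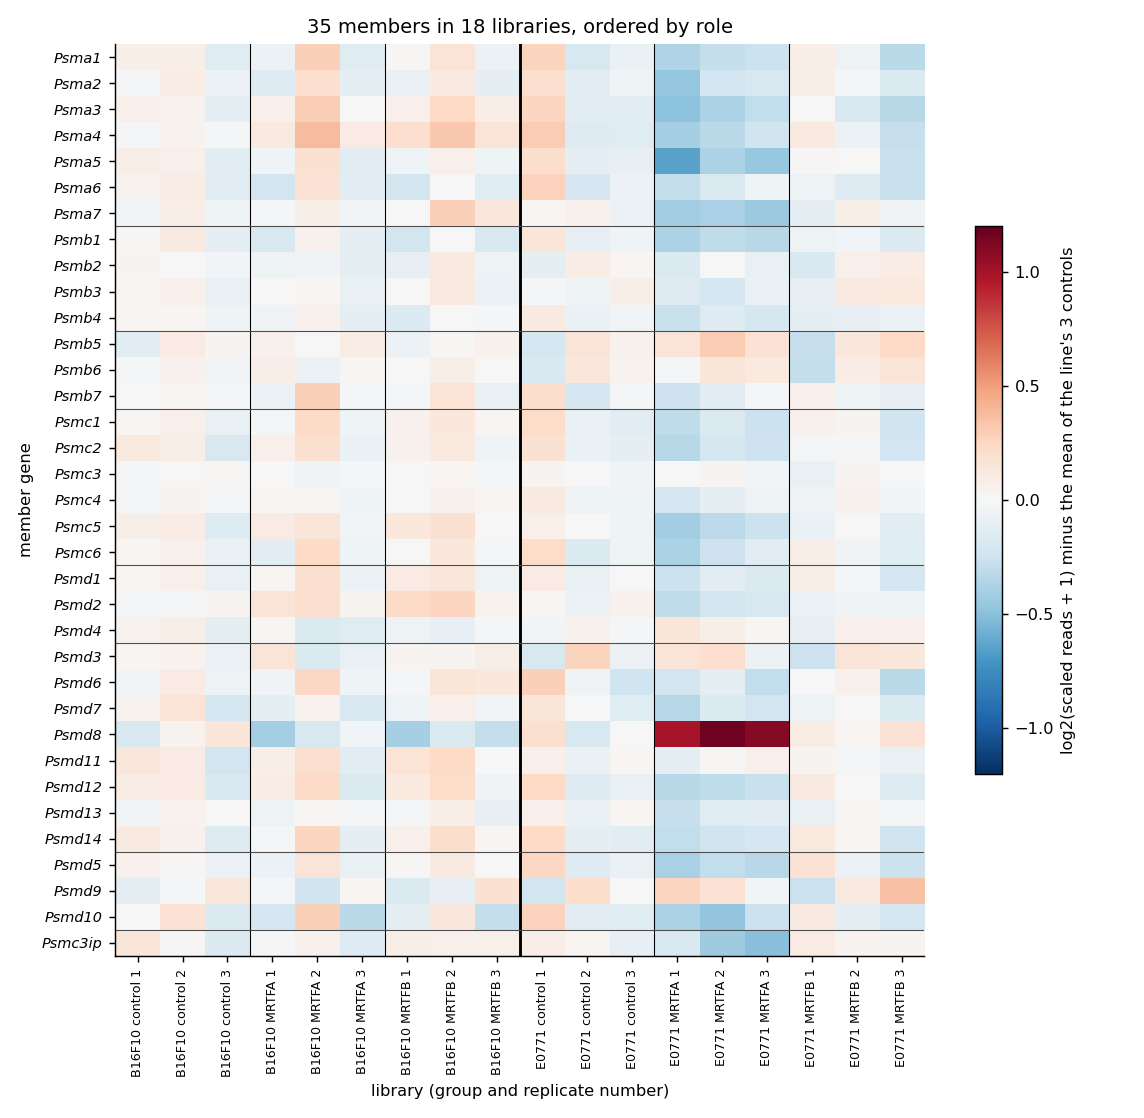
Colours show the log2(scaled reads + 1) of each of 35 members (vertical axis, grouped by role) in each of 18 libraries (horizontal axis) minus the mean of the 3 controls of the same line. Psmd8 stands out in red in the 3 E0771 MRTFA libraries, where most other members are blue.

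MRTFA in E0771 cells raised 1 member, Psmd8, and lowered 8. Psmd8 encodes RPN12, a subunit of the lid. The 8 lower genes were the alpha subunits Psma3, Psma5 and Psma7, the beta subunits Psmb1 and Psmb4, the base ATPase Psmc5, the base subunit Psmd2, which binds ubiquitin-carrying shuttle proteins, and Psmc3ip. The 8 fell by 0.21 to 0.49 on the log2 scale. Among all 13189 genes tested, 20.3% were higher and 18.1% lower, against 2.86% and 22.9% of the members. With this scaling the share called lower is near that of all genes. It is not under the TMM, upper-quartile and total-read scalings given below, while edgeR and DESeq2 called fewer members. The median log2 difference was -0.24 over the members and -0.02 over all genes, with 28 of 35 members and 52% of all genes below 0.

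Psmd8 had 10904, 8372 and 9607 scaled reads in the E0771 controls and 19029, 21457 and 20450 with MRTFA. The lowest MRTFA library was above the highest control by a wide margin. The fitted ratio was 2.12 (log2 1.08, SE 0.10, 95% interval 0.86 to 1.31, adjusted p = 1.67e-05). In E0771 MRTFB libraries it had 10166, 9724 and 10824, within the range of the controls, and in B16F10 controls 13351, 15681 and 16839.

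Psma5 and Psma7 were the subunits with the largest falls; both belong to the alpha ring that closes the core. Psma7 had 12183, 12389 and 11426 scaled reads in the E0771 controls and 8959, 9160 and 8833 with MRTFA, with no overlap (log2 -0.42, SE 0.08, adjusted p = 0.00161). Psma5 had 6723, 5384 and 5428 in the controls and 3723, 4474 and 4234 with MRTFA, also without overlap (log2 -0.49, SE 0.12, adjusted p = 0.00773). The first control library was the high one for Psma5 but not for Psma7.

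Psmc5, whose product is the ATPase RPT6, had 12651, 12070 and 11699 scaled reads in the controls and 9094, 9758 and 10151 with MRTFA (log2 -0.33, SE 0.08, adjusted p = 0.0066). Psmb1, a beta subunit without an active site, had 9641, 8152 and 8442 in the controls and 6724, 7079 and 6915 with MRTFA (log2 -0.34, SE 0.08, adjusted p = 0.0091). Psmc3ip, at a far lower level, had 765, 733 and 674 in the controls and 639, 537 and 509 with MRTFA (log2 -0.37, SE 0.11, adjusted p = 0.0251). The control and MRTFA ranges did not overlap for any of these 3 genes.

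**Figure D2:**
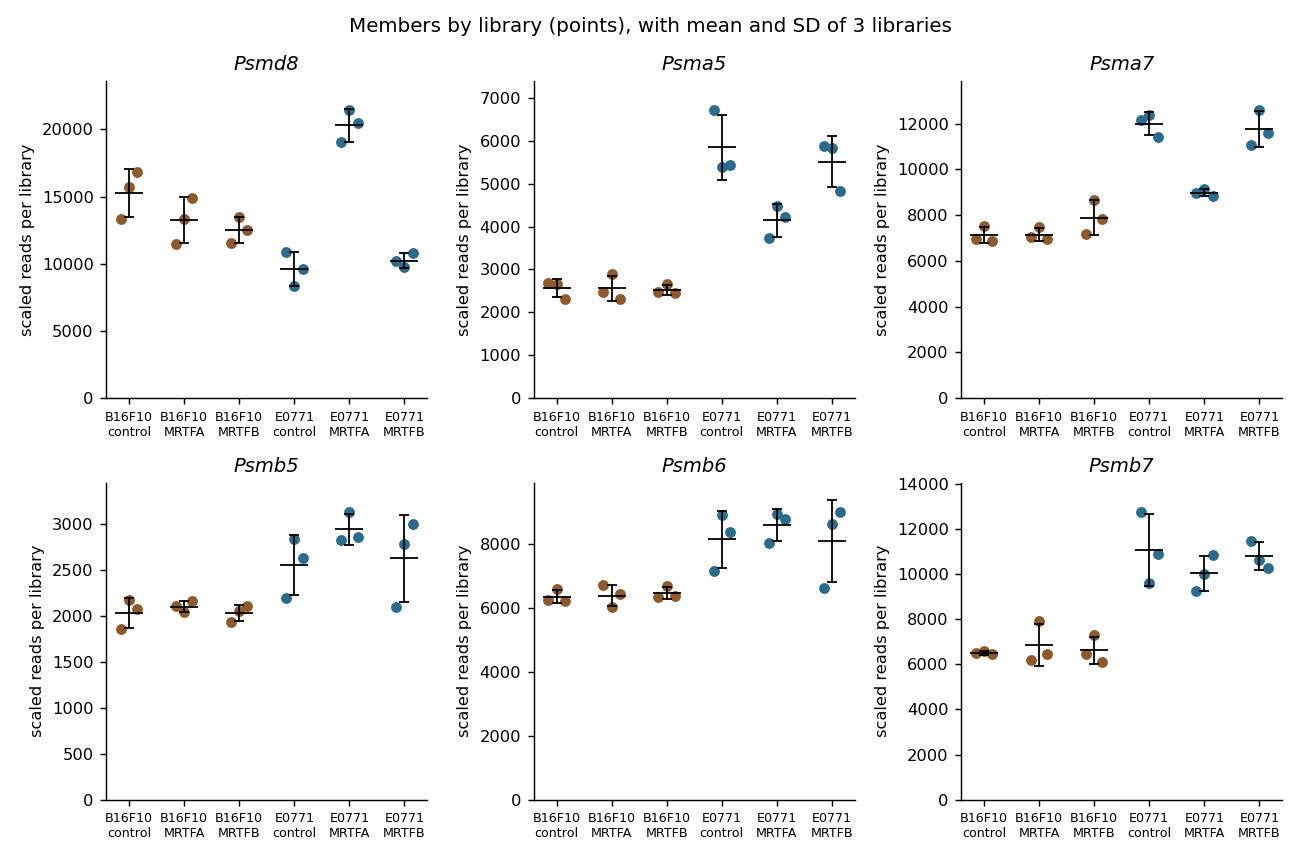
Points are scaled reads in each library (vertical axis, from 0) for 6 members across the 6 groups (horizontal axis); bars are the mean and SD of 3 libraries. For Psmd8 the 3 E0771 MRTFA libraries lie between 19029 and 21457, above every other library, while the catalytic subunits Psmb5, Psmb6 and Psmb7 overlap between E0771 control and E0771 MRTFA.

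The start regions of these genes are shown because MRTFs act through serum response factor, which binds the CArG box, and because Psmd8 moved against the other members that were called. RefSeq windows (GRCm38.p6) from 250 bases before to 50 after the annotated start were used for 29 of the 35 members, all but Psmb1, Psmb2, Psmb7, Psmc3, Psmd3 and Psmd7. Printed 5′ to 3′ on the strand of the gene are Psmd8 (chr7:29180624-29180923, minus strand), which rose, Psma5 (chr3:108256676-108256975, plus strand) and Psma7 (chr2:180042415-180042714, minus strand), which fell, and Psma6 (chr12:55383972-55384271, plus strand), the member with a CArG box. Psmb5 (chr14:54617946-54618245, minus strand) stands for the catalytic subunits. Capitals mark matches, on either strand, to the CArG box, TGACNNNGC (the antioxidant response element bound by NFE2L1 and NFE2L2), CCGGAAG (an ETS site), CCAAT (an NF-Y site) and GGGCGG (a GC box).
Psmd8: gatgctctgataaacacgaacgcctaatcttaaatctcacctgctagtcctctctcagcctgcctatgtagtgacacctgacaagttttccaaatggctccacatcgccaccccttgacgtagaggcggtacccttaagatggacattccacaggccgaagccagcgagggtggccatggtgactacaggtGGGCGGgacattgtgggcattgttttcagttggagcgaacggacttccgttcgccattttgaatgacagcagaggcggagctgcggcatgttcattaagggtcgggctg
Psma5: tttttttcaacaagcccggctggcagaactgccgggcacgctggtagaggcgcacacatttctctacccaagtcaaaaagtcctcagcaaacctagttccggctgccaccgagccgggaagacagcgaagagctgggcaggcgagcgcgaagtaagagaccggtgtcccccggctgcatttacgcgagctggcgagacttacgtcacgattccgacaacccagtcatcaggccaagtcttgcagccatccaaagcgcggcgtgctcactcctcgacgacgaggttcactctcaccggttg
Psma7: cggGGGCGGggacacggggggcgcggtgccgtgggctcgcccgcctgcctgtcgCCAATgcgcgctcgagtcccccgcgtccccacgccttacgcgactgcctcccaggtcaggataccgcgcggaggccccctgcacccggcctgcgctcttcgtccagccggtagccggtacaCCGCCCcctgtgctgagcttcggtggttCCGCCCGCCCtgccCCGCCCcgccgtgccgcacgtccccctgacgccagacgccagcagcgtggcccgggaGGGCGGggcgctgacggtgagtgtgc
Psma6: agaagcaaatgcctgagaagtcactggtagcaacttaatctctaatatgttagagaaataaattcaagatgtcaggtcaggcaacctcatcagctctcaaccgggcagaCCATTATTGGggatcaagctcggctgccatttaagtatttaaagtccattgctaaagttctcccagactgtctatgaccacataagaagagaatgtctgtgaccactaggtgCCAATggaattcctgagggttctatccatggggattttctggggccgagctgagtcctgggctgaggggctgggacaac
Psmb5: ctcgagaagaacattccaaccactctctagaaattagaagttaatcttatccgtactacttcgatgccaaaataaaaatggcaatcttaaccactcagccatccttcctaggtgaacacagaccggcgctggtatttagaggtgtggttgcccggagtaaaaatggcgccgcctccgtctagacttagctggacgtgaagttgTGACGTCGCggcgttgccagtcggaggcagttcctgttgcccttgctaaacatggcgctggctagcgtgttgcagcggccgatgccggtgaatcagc

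In the Psmd8 window the only match was a GC box beginning 59 bases before the start. The Psma5 window had none, and the Psma7 window had a CCAAT match and 6 GC boxes, 2 of which overlap. In the Psma6 window a CArG box began 141 bases before the start, and its end overlaps a reverse CCAAT match. RefSeq gives Psma6 another start, whose window holds 3 CCGGAAG matches and no CArG box. Psma6 itself differed between E0771 MRTFA and control by -0.17 on the log2 scale (adjusted p = 0.301). The Psmb5 window held the antioxidant response letters 47 bases before the start.

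Across the 29 members with a window, 1 (3.45%) held a CArG box against 1.81% of 27025 genes with windows of the same length. TGACNNNGC was in 5 (17.2% against 14%), namely Psmb5, Psmb6, Psmc6, Psmd9 and Psmd12. CCGGAAG was in 11 (37.9% against 9.93%), GGGCGG in 18 (62.1% against 38.2%) and CCAAT in 12 (41.4% against 41.1%). The members' windows were rich in CG dinucleotides, with a median of 20 per window against 7 over all windows. These matches describe the letters of the windows and are no evidence of binding.

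The catalytic subunits, which carry the active sites of the core, were not among the genes called in E0771 MRTFA. Psmb5, the chymotrypsin-like subunit, had 2198, 2836 and 2635 scaled reads in the controls and 2830, 3137 and 2859 with MRTFA (log2 0.21, 95% interval -0.10 to 0.52, adjusted p = 0.263). Psmb6, the caspase-like subunit, had 7163, 8909 and 8380 in the controls and 8034, 8950 and 8799 with MRTFA (log2 0.08, interval -0.19 to 0.36). Psmb7, the trypsin-like subunit, had 12770, 9600 and 10875 in the controls and 9237, 10017 and 10825 with MRTFA (log2 -0.14, interval -0.38 to 0.11). The groups overlapped for all 3, and the sign of Psmb6 turned to -0.002 with scaling by total reads and to -0.009 without E0771 control replicate 1.

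By role, 3 of 7 alpha subunits, 2 of 4 noncatalytic beta subunits, 1 of 6 base ATPases and 1 of 3 other base subunits were called lower, and no other subunit was. All 7 alpha subunits had a log2 difference below 0 (median -0.32), as did the 4 noncatalytic beta subunits (median -0.18) and 5 of 6 ATPases (median -0.25). Of the 8 lid subunits only Psmd8 was called, and the other 7 ranged from -0.30 for Psmd12 to 0.10 for Psmd3. The chaperones Psmd5, Psmd9 and Psmd10 had values of -0.34, 0.13 and -0.37, none called. Counting by ranges rather than by the test, the MRTFA libraries lay wholly below the controls for 22 of 35 members (62.9%, against 25.9% of all genes) and wholly above for 1 (2.86%, against 24.2%).

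**Figure D3:**
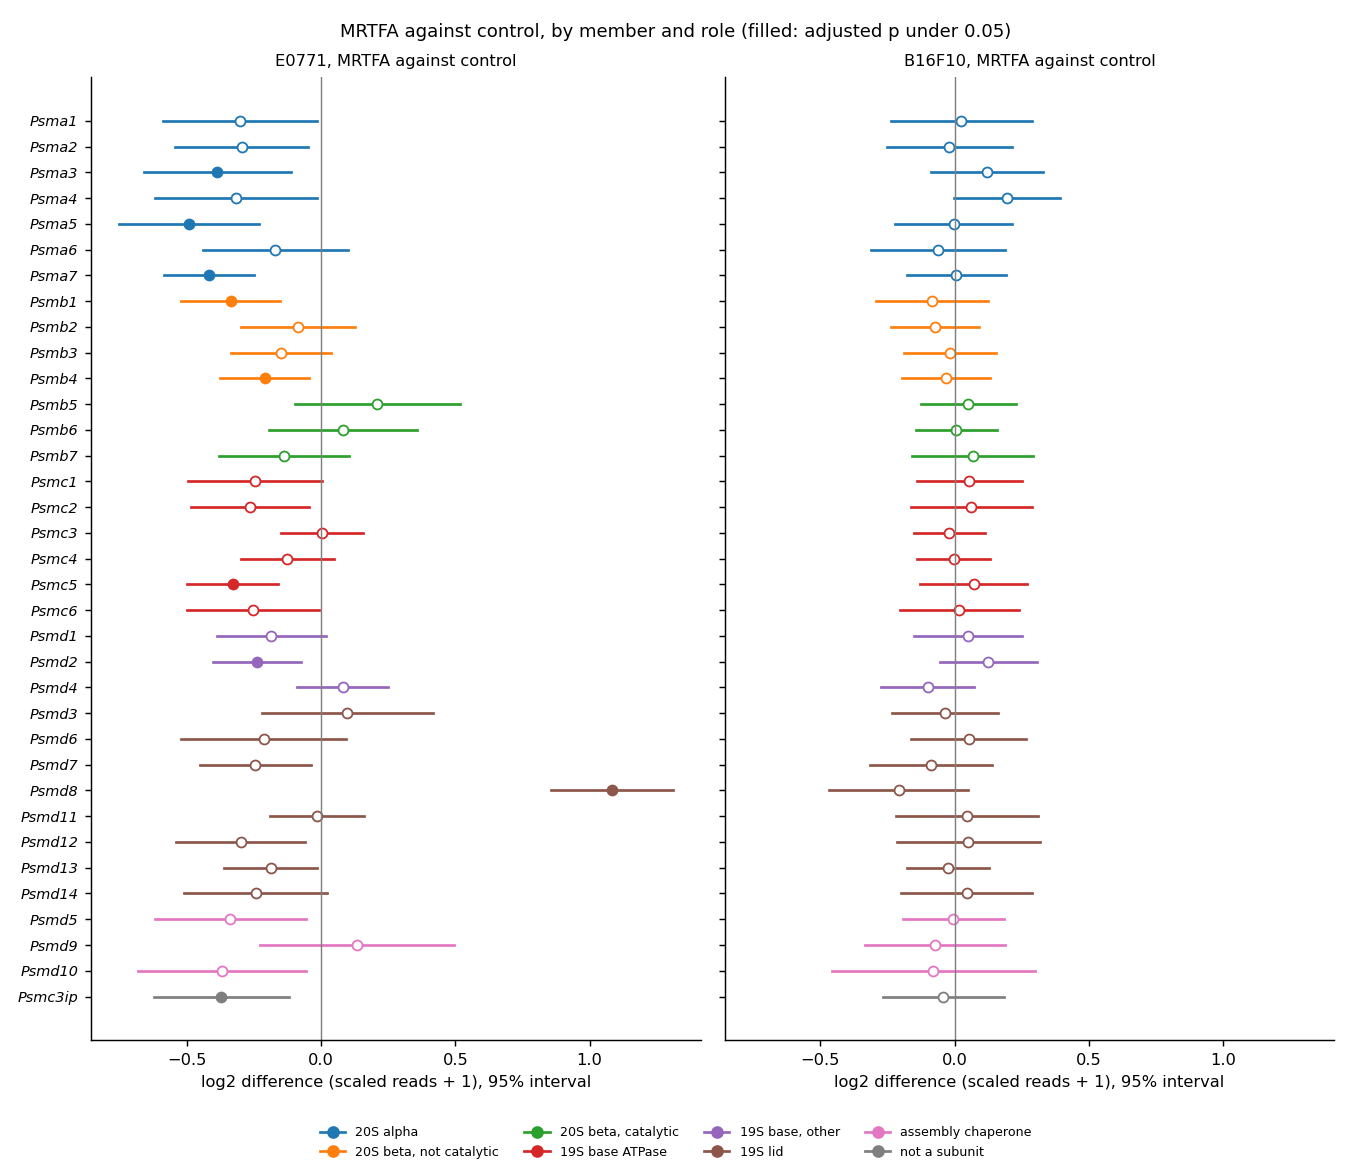
Points are log2 differences between MRTFA and control on the scale of scaled reads + 1 with 95% intervals (horizontal axis) for each member (vertical axis), in E0771 (left) and B16F10 (right), coloured by role; filled points have a limma adjusted p under 0.05. In E0771, Psmd8 lies at 1.08 and the 8 other filled points between -0.49 and -0.21, while no point is filled in B16F10.

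The count of lower members moved with the scaling. It was 8 with the DESeq size factors (22.9% of members against 18.1% of all genes), 13 with TMM (37.1% against 19.4%), 18 with upper-quartile (51.4% against 22.9%) and 23 with total-read scaling (65.7% against 25%). Psmd8 was the 1 higher member in each. On the recovered reads, edgeR and DESeq2 each called 8 members in all, Psmd8 among them. Shares of all genes in those fits are not given here. TMM factors were taken over all 18 libraries for the count of 13, and over the 9 E0771 libraries in edgeR. Total-read scaling has the limit given above for shares of reads. Over all genes the split went from 2677 higher and 2387 lower to 2356 and 3282 with total reads. Without E0771 control replicate 1, or without E0771 MRTFA replicate 2, 5 members in all were called. Psmd8, Psma5, Psma7, Psmb1 and Psmc5 were called under every scaling, by edgeR and DESeq2 on the recovered reads, and without each library in turn, whereas Psma3, Psmb4, Psmc3ip and Psmd2 lost their call in 3, 5, 4 and 4 of 6 fits without a library. Psmb4 also lost it with edgeR (adjusted p = 0.0825), DESeq2 (0.0667), no filter (0.0683) and only the 2 groups fitted (0.0841), and in the last of these so did Psmc3ip (0.0512) and Psmd2 (0.055). In E0771 MRTFA the epithelial marker sum was 14987 to 17027 against 5820 to 7901 in the controls, and the melanocyte sum 369 to 389 against 558 to 636; their part in the members' differences was not tested.

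In some libraries the members deviated from their group mean along the GC content of their longest protein coding transcript, and in others hardly at all. In E0771 control replicate 1, 26 of 35 members had the highest value of the 3 controls, and the members' deviations from the group mean correlated with GC content at r = -0.75 over 35 genes. In B16F10 MRTFA replicate 2 the value was r = -0.83 and in E0771 MRTFB replicate 3 it was 0.74, whereas it was 0.02 in B16F10 MRTFB replicate 1 and -0.24 in B16F10 control replicate 2. Over all genes the same correlations lay between -0.34 and 0.32 across the 18 libraries. The points of each correlation share a library, so these values describe the libraries.

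The E0771 MRTFA difference followed the same axis in part. Its correlation with GC content was r = 0.47 over 35 members and 0.61 without Psmd8, against 0.09 over all genes. The 7 members with a difference above 0 had GC contents of 52.7 to 58.3%, the 8 called lower 40.8 to 52.2%, and the 20 others 37.0 to 53.8%, which overlaps both. With the GC trend of each library taken out, 10 members were called, among them all 9 above, Psmd8 was at 1.07, and the median over members was -0.19. The share of all genes called in that fit is not given here.

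**Figure D4:**
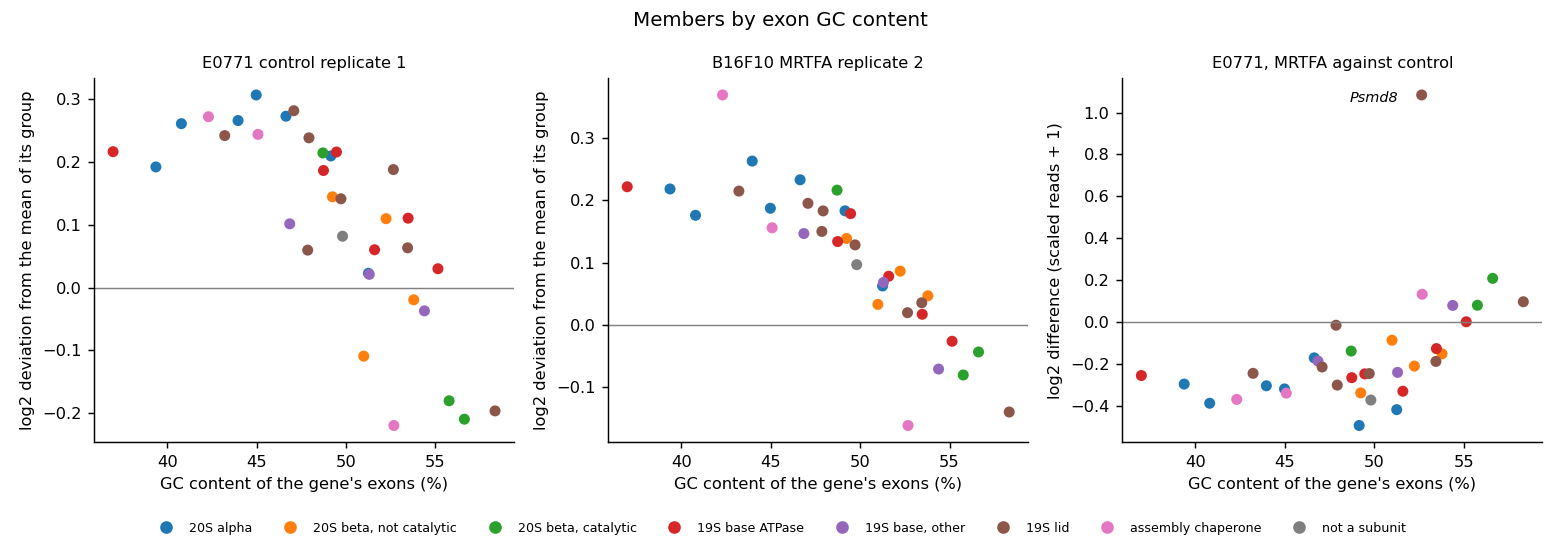
Each point is a member, coloured by role, at the GC content of its longest protein coding transcript (horizontal axis, %, labelled as exons). The vertical axis is the log2 deviation from the group mean in E0771 control replicate 1 (left) and B16F10 MRTFA replicate 2 (middle), which fall with GC content (r = -0.75 and -0.83), and the log2 difference between E0771 MRTFA and control (right), where Psmd8 lies apart at 1.08.

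Psmd8 lies on chromosome 7 (29174188 to 29180701, minus strand, GRCm38), and no other annotated gene overlaps it, whereas 17 of the 35 members overlap another gene, 9 of them a protein coding one, and whether counting used strand is not stated in these sources. The neighbours of Psmd8 were examined after its value was seen. Of the 3 nearest genes of the table on each side, 2 passed the test and were well above the filter in both groups. In this comparison 20.3% of all genes were called higher. Spred3, an inhibitor of Ras signalling 3777 bases away, rose from 428 ± 166 to 1774 ± 201 scaled reads (log2 2.12, adjusted p = 0.000389). On the other side 2200002D01Rik, 65860 bases away, rose from 667 ± 92.2 to 2091 ± 505 (log2 1.63, adjusted p = 0.000154). Yif1b, which overlaps the latter, had 837 ± 196 and 959 ± 155 (log2 0.21, adjusted p = 0.472), and reads could be split between these 2 genes. The other 3 were near or under the filter of 10 scaled reads in the controls and support nothing, though Ggn and Catsperg1 were also called higher. Ggn, which ends 212 bases from Psmd8 and overlaps Spred3, had 13.1 ± 10.5 and 50.4 ± 11.8 (limma adjusted p = 0.0077). Catsperg1, 620 bases away, had 4.6 ± 3.5 and 19.1 ± 9.3 (limma adjusted p = 0.0306). The gene 1110035H17Rik, which was not tested, had 3.9 ± 1.1 and 6 ± 2.1. All means are over 3 libraries with SD, and whether these changes have a common source was not tested.

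Per kilobase of exon, the level of Psmd8 among the 31 subunits was the 2nd highest in B16F10 controls (5002 scaled reads per kb), the 16th in E0771 controls (3149) and the 3rd in E0771 MRTFA (6645). The order was led by Psmc5 in all B16F10 groups (6207 in the controls) and by Psma6 in all E0771 groups (9716 in the controls). The lowest were Psmd6 in B16F10 controls (1021) and Psmd13 in E0771 controls (1023). On this scale the highest and lowest subunit differed 6.08-fold in B16F10 controls and 9.5-fold in E0771 controls. The length used was that of all annotated exons of a gene joined, from 899 bases for Psmb5 to 7265 for Psmd1. It need not be that of the transcripts expressed, so the order between genes also depends on the annotation.

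MRTFB in E0771 changed no member by the test: 0 of 35 were called, where 0.136% of all genes were higher and 0.00758% lower. An unadjusted p under 0.05 was reached by 0 of 35 members and 335 of 13189 genes. edgeR and DESeq2 also called 0. The members ranged from -0.17 for Psma3 to 0.10 for Psmd8, with a median of -0.03, and 28 of 35 lay below 0, as did 52.9% of all genes. MRTFA and MRTFB were compared with the same controls. Psma3 had 11442, 8721 and 8722 scaled reads in the controls and 9517, 8417 and 7585 with MRTFB, Psma6 14345, 10299 and 11326 against 11355, 10672 and 9835, and Psmb4 8515, 7468 and 7728 against 7335, 7382 and 7524. These 3 had the smallest p-values, and each overlapped between groups. No member had MRTFB libraries wholly above or below the controls, where 3.04% of all genes were above and 2.56% below.

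Set directly against MRTFA in E0771, MRTFB libraries had 5 members higher (14.3%) and 1 lower (2.86%), where 14.5% and 19.1% of all genes were. With this scaling the share called higher is near that of all genes. It was 14.3% against 15.3% with TMM, 25.7% against 20% with upper-quartile and 45.7% against 22.9% with total-read scaling. Psmd8 was lower by 0.99 on the log2 scale (log2 -0.99, SE 0.10, adjusted p = 3.81e-05). Psma7 (0.39, adjusted p = 0.00289), Psma5 (0.41, adjusted p = 0.0217), Psmc3ip (0.43, adjusted p = 0.0154), Psmc5 (0.26, adjusted p = 0.0232) and Psmb1 (0.25, adjusted p = 0.0425) were higher. Psmd8 and Psma7 kept their call without each library, while Psmb1, Psmc5, Psma5 and Psmc3ip lost it in 5, 4, 3 and 2 of 6 such fits, and Psmb1 also with edgeR (0.0635) and with no filter (0.0565). This comparison shares the E0771 MRTFA libraries with the one against control. The median over members was 0.18 and over all genes 0.02. The libraries did not overlap for 13 members that were higher and 1 that was lower, where 23.1% and 23.9% of all genes did not. The split of 5 higher and 1 lower became 16 and 1 with total-read scaling, while that of all genes went from 1916 higher and 2514 lower to 3006 and 2174, and 3 members in all were called without E0771 MRTFA replicate 1, E0771 MRTFA replicate 2 or E0771 MRTFB replicate 2.

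In B16F10, 0 of 35 members were called with MRTFA, where 1.34% of all genes were higher and 0.207% lower, and edgeR and DESeq2 called 0. An unadjusted p under 0.05 was reached by 0 of 35 members and 1272 of 13517 genes. The median over members was -0.004, and 1 member lay wholly above and 1 wholly below the controls, where 6.83% and 6.09% of all genes did. The 3 with the smallest p-values in the libraries labelled MRTFA were Psma4, Psmd8 and Psmd2. Psma4, an alpha subunit, had 4329, 4489 and 4305 scaled reads in the controls and 4699, 5699 and 4681 with MRTFA, without overlap (log2 0.19, adjusted p = 0.547). Psmd8 had 11486, 13345 and 14884 with MRTFA, which overlapped its controls (log2 -0.21, 95% interval -0.47 to 0.05, adjusted p = 0.69). Each of the 3 MRTFA libraries was below the control with the same replicate number, and with the number as a block its adjusted p was 0.0776. Psmd2 had 14248, 14199 and 14750 in the controls and 16008, 16458 and 14681 with MRTFA (log2 0.12, adjusted p = 0.772). The catalytic subunits were even across these groups: Psmb5 had 1857, 2169 and 2076 in the controls and 2104, 2039 and 2163 with MRTFA, and Psmb6 6239, 6602 and 6227 against 6705, 6036 and 6423. Psmb7 had 6480, 6607 and 6446 in the controls and 6209, 7923 and 6445 with MRTFA, and MRTFA replicate 2 was the high library.

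In the B16F10 libraries labelled MRTFB, 0 of 35 members were called, where 0.0148% of all genes were higher and 0.111% lower, and edgeR and DESeq2 called 0. At an unadjusted p under 0.05 there were 2 of 35 members, Psma4 and Psmd8, and 1199 of 13517 genes. Psma4 had 5014, 5466 and 4858 scaled reads, above all controls (log2 0.22, adjusted p = 0.486). Psmd8 had 11534, 13464 and 12496, below its control mean but overlapping (log2 -0.29, adjusted p = 0.501). With the replicate number as a block, Psmd8 was called lower (adjusted p = 0.0309), the only member that was. The shares of all genes above are from the fit without the block, so this call has no matching share beside it. Psmd2 had 16934, 17213 and 14846, above the controls (log2 0.18, adjusted p = 0.563). Psma4 and Psmd2 were the 2 members wholly above the controls and none was wholly below, where 6.38% and 7.45% of all genes were. Between MRTFB and MRTFA in B16F10, 0 of 35 members were called, where 0.0148% of all genes were higher and 1.08% lower, and edgeR and DESeq2 called 0. An unadjusted p under 0.05 was reached by 0 of 35 members and 586 of 13517 genes. The values ranged from -0.08 to 0.14 with a median of 0.02, and 1 member, Psmc3ip, was wholly above and none wholly below, where 2.38% and 5.38% of all genes were.

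The effect of MRTFA differed between the lines for 7 members, 1 higher and 6 lower in E0771 relative to B16F10, where 12.6% and 8.55% of all genes were. Psmd8 had the difference with the smallest p-value (log2 1.29, SE 0.16, 95% interval 0.95 to 1.63, adjusted p = 2.57e-05). The 6 lower members were Psma3, Psma4, Psma5, Psma7, Psmc5 and Psmd2, between -0.51 and -0.36. Psma4 was not called in either line alone: its difference was -0.32 in E0771 and 0.19 in B16F10. The count fell to 3 without B16F10 control replicate 3, B16F10 MRTFA replicate 2 or E0771 MRTFA replicate 1, and to 4 without E0771 control replicate 1. For the effect of MRTFB, 0 of 35 members differed between the lines, where 0.101% of all genes were higher and 0.0135% lower. There, 2 of 35 members (Psmd8 and Psmd2) and 811 of 14859 genes had an unadjusted p under 0.05, and edgeR and DESeq2 called 0.

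More members were called between the controls of the lines than in any comparison of a transgene with control. In E0771 controls 29 of 35 members were higher than in B16F10 controls and 4 were lower, where 33.4% of all genes were higher and 36.8% lower. The median over members was 0.49 and over all genes -0.04. All 7 alpha subunits were higher (median 0.80), as were all 7 beta subunits, 5 of 6 ATPases, all 3 other base subunits and 6 of 8 lid subunits. The 4 lower members were Psmd8, Psmd13, Psmd10 and Psmc3. The libraries of the lines did not overlap for 29 members that were higher and 3 that were lower, where 34.7% and 37.6% of all genes did not.

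The members with the smallest p-values between the control groups were Psmd5, which is no subunit, 3 alpha subunits, the lid subunit Psmd13 and the base subunit Psmd4. Psmd5, the chaperone that holds ATPases before the base is complete, had 2347, 2289 and 2158 scaled reads in B16F10 and 6068, 4591 and 4828 in E0771 (log2 1.18, SE 0.11, adjusted p = 5.1e-08). Psma5 had 2691, 2669 and 2320 in B16F10 and 6723, 5384 and 5428 in E0771 (log2 1.19, adjusted p = 5.23e-08). Psma6 had 5186, 5375 and 4604 in B16F10 and 14345, 10299 and 11326 in E0771 (log2 1.23, adjusted p = 9.94e-08). Every E0771 library was above every B16F10 library for these 3 genes, with fitted ratios of 2.26, 2.28 and 2.35.

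Psma7 had 6973, 7522 and 6883 in B16F10 and 12183, 12389 and 11426 in E0771 (log2 0.75, adjusted p = 1.11e-07). Psmd4, a ubiquitin receptor of the base, had 5823, 5937 and 5269 in B16F10 and 8557, 9079 and 8712 in E0771 (log2 0.63, adjusted p = 5.68e-07). Psmd13, a structural lid subunit, went the other way, with 5112, 5362 and 5194 in B16F10 and 3607, 3257 and 3502 in E0771 (log2 -0.60, SE 0.07, adjusted p = 4.31e-07). Psmd8 was also lower in E0771 (log2 -0.67, SE 0.11, adjusted p = 5.28e-05), with no overlap. Psmc3 was only slightly lower (log2 -0.14, adjusted p = 0.0301), and its call was lost with TMM or upper-quartile scaling, with only the 2 groups fitted (adjusted p = 0.104) and in 4 of 6 fits without a library. Psmd10 (log2 -0.44, adjusted p = 0.0229) lost its call with upper-quartile scaling (0.0566) and in 4 of 6 fits without a library.

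The catalytic subunits were higher in E0771 controls too, by 0.32 for Psmb5, 0.35 for Psmb6 and 0.76 for Psmb7 on the log2 scale (adjusted p = 0.0205, 0.00554 and 8.6e-06). Psmb5 lost its call in 3 of 6 fits without a library, and the higher calls of Psmc2 and Psmd3 were lost in 2 of 6 each. Only Psmc3ip and Psmd9 were not called, at -0.15 and -0.09. Since line and cell type are one and the same here, they cannot be told apart.

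**Figure D5:**
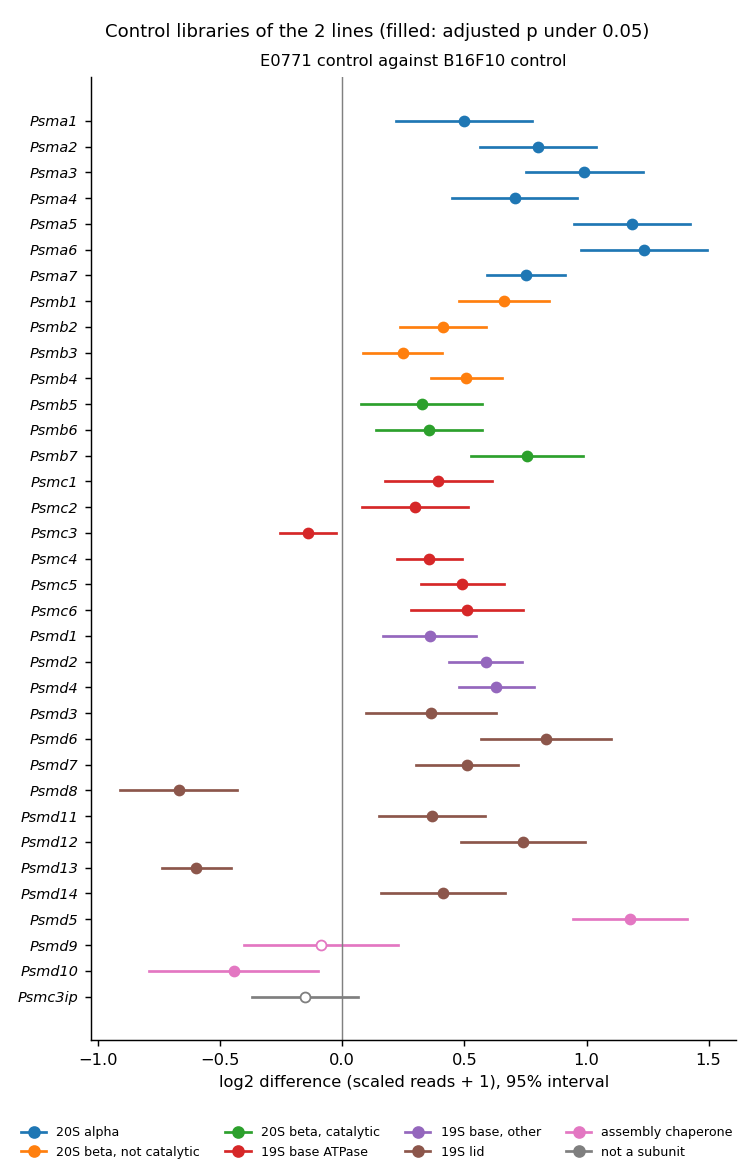
Points are log2 differences between E0771 and B16F10 control libraries on the scale of scaled reads + 1 with 95% intervals (horizontal axis) for each member (vertical axis), coloured by role; filled points have a limma adjusted p under 0.05. All alpha and beta subunits lie above 0, while Psmd8 (-0.67) and Psmd13 (-0.60) lie below it.

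Other genes of the proteasome pathway, from lists of 37 genes of which 35 could be tested, moved in both directions in E0771 MRTFA, with 3 higher and 11 lower, where 20.3% and 18.1% of all genes were. Among chaperones of core assembly, 3 of 5 fell: Psmg1 (log2 -0.42, adjusted p = 0.0127), Psmg2 (-0.51, adjusted p = 0.00216) and Pomp (-0.35, adjusted p = 0.0103). Pomp, which completes the maturation of the core, had 6197, 5127 and 5200 scaled reads in the controls and 4207, 4183 and 4487 with MRTFA. Of 5 activators and inhibitors, the nuclear activator Psme3 fell (-0.31, adjusted p = 0.0268, lost in 3 of 6 fits without a library). Another 5 genes encode parts of the regulatory particle outside the symbol rule or proteins that act on it. Of these, the deubiquitinase Uchl5 (-0.50, adjusted p = 0.0144) and the phosphatase Ublcp1 (-0.55, adjusted p = 0.00635) fell. Adrm1, Usp14 and the lid subunit Shfm1 were not called. Of 10 shuttle and ubiquitin genes, Rad23b, Ubqln4 and Ube3c fell, by 0.29, 0.44 and 0.35 on the log2 scale. Rad23b lost its call with edgeR (adjusted p = 0.063), with only the 2 groups fitted (0.0566), with the GC trend removed (log2 -0.18, adjusted p = 0.12) and in 4 of 6 fits without a library, where it came to -0.19 without E0771 MRTFA replicate 1. Psmg1 and Uchl5 lost theirs in 1 of 6 each.

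The regulators of proteasome genes did not move as one. Nfe2l1, the transcription factor that raises proteasome subunits when activity is short, had 6441, 8102 and 7229 scaled reads in the E0771 controls and 10441, 11847 and 10286 with MRTFA (log2 0.58, SE 0.10, adjusted p = 0.00128). Ngly1, the glycanase that NFE2L1 needs to become active, fell (-0.64, adjusted p = 0.0128, and 0.0527 without E0771 control replicate 1), as did Nfe2l2 (-0.47, adjusted p = 0.00898). Stat3 had 2938, 3043 and 3341 in the controls and 8979, 9345 and 9472 with MRTFA, far apart (log2 1.58, adjusted p = 7.6e-07).

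Of the inducible subunits that replace the catalytic ones in the immunoproteasome, Psmb8 rose in E0771 MRTFA. It had 350, 312 and 1125 scaled reads in the controls and 1738, 1635 and 3500 with MRTFA (log2 2.11, SE 0.61, adjusted p = 0.0189), and replicate 3 was the high library in both groups. Its adjusted p was above 0.05 without E0771 control replicate 1, E0771 control replicate 2 or E0771 MRTFA replicate 3, at most 0.0714. Psmb9 (2.29, adjusted p = 0.0905) and Psmb10 (0.56, adjusted p = 0.0791) were not called. In B16F10 controls Psmb8 had at most 18.1 scaled reads. With MRTFB in E0771, and with either transgene in B16F10, 0 of the 35 pathway genes tested were called.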

How the data were processed

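The 1 table used holds, for 18 libraries, a scaled signal that the authors obtained from read counts with DESeq, whose version is unknown here. The submitters' processing notes name cutadapt 1.6 for trimming, STAR 2.5.0a with mm10, and HTSeq 0.5.3; annotation and strand setting were not found. All values were whole multiples of 1 step per library within 0.001 read, so reads were recovered. Titles gave the groups. No library duplicated another of its group (chi-square per degree of freedom 11.7 to 59.2). Libraries of different groups were not compared in this way.

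limma 3.58.1 (R 4.3.3) was fitted to log2(scaled reads + 1), with a mean-variance trend, for genes with at least 10 scaled reads in at least 3 fitted libraries: per line within a line, over all 18 libraries between lines. This scale understates changes of low genes. Two-sided p-values were adjusted by Benjamini-Hochberg over all genes tested, called under 0.05; the test was checked on simulated data. Alternatives were pseudocount, filter, scaling, edgeR 4.0.16, DESeq2 1.42.0, groups fitted, replicate block, leaving out libraries and, chosen after seeing the data, removal of a GC trend. Lengths, GC content and positions came from GENCODE M21 (18827 of 18909 identifiers). Per-library values are given for catalytic subunits and for up to 6 called members with the smallest p-values per comparison with control, or 3 where none was called. Members and lists were chosen with earlier results of these data known.

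Libraries with the same replicate number deviated together, with every correlation above 0.1, in both E0771 comparisons with MRTFB (0.134 to 0.553) and all 3 within B16F10 (0.353 to 0.634), which were read as pairs. E0771 MRTFA against control (0.084 to 0.525), control against control (0.084 to 0.172) and the line differences were not. The main fits held no replicate term, also for the comparisons read as pairs, so their p-values are unpaired. The replicate block was fitted only as an alternative.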

Additional observations from a re-analysis of the deposited data

Results flagged for a closer look

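The change with MRTFA differed between E0771 and B16F10, by an interaction term in limma over all 18 libraries, for 7 members. Psmd8, the lid subunit, had an E0771 difference minus B16F10 difference of 1.29 on the log2 scale. The alpha subunits Psma3, Psma4, Psma5 and Psma7 had -0.51, -0.51, -0.49 and -0.42, the ATPase Psmc5 had -0.40, and the base subunit Psmd2 had -0.36. Among all genes 12.6% were higher and 8.55% lower in the same test. The calls of Psmd8, Psma7 and Psmd2 remained without each library in turn. Those of Psma3, Psma4, Psma5 and Psmc5 were lost in 5, 7, 4 and 3 of 12 such fits. Psma4 and Psma5 also lost theirs with only the groups compared fitted (limma adjusted p = 0.0527 and 0.0548). The E0771 libraries with MRTFA carried a raised Mkl1 level and the B16F10 libraries labelled MRTFA did not pass that test, so the lines also differ in the measured level of the transgene's gene; its part in these differences was not tested.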

How the results depend on the processing

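Over 81 results for single genes and 1500 alternatives, 952 values from other settings and 450 from leaving out a library kept their direction and side of the threshold, 17 and 77 lost the call, 1 gained it, and 3 changed sign, all of Psmb6 in E0771 MRTFA (-0.002 with total reads, -0.011 with the GC trend removed, -0.009 to 0.148 when a library was left out). In E0771 MRTFA against control, 9 members were called, 14 with TMM, 19 with upper-quartile and 24 with total-read scaling, each holding the same 9. With edgeR and with DESeq2, 8 of these 9 were called. Leaving out a library gave 5 to 13. With the replicate number as a block it was 15, although the numbers did not read as pairs there. Shares of all genes called with the block are not given here, so these counts cannot be set against them. For MRTFB against MRTFA in E0771, the count of 6 became 10 with upper-quartile and 17 with total-read scaling, and 3 to 8 without a library. In B16F10 MRTFB the replicate block gave 1 against 0; in the other comparisons within pairs it changed no call of a member named there. The MRTFA line difference ranged from 3 to 7 without a library, and control against control from 29 to 32. The lowest value of a member was 509 scaled reads.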

Other observations

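Between the control groups, 15 of 35 other proteasome pathway genes were higher in E0771 and 8 lower, where 33.4% and 36.8% of all genes were. The activators Psme1, Psme2, Psme3 and Psme4, which cap the core in place of the base and lid, were all higher, by 0.75, 1.18, 0.59 and 0.73 on the log2 scale. Among chaperones of core assembly Psmg1 (0.91), Psmg2 (0.28) and Pomp (0.23) were higher and Psmg4 (-0.45) was lower. Usp14 (0.76) and Uchl5 (1.29), the deubiquitinases that trim chains at the proteasome, were higher, while Shfm1, the smallest lid subunit, was lower (-0.77).

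Of the genes that control proteasome transcription or bring proteasomes into the nucleus, none of 7 was higher in E0771 controls and 4 were lower: Nfe2l2 (-0.63), Ddi2 (-0.20), Vcp (-0.50) and Akirin2 (-0.93). Nfe2l1 differed by -0.08 (adjusted p = 0.436, limma). The spread of the members between E0771 control libraries was a median SD of 12.2% of the mean, against 9.52% for genes with a mean of at least 500 scaled reads, and in E0771 MRTFA it was 5.53% against 8.13%.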
